A study of Mus musculus with 12 samples.

Results

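Fatty acid synthesis, elongation and desaturation were described through 35 genes, chosen as named members of the pathway and found by their Ensembl mouse identifiers among the 25700 genes of the count table. All 35 were listed there. They cover the supply of acetyl-CoA and NADPH, the carboxylases and fatty acid synthase, the stearoyl-CoA desaturases, the elongases, the remaining enzymes of the elongation cycle, the front-end desaturases, the acyl-CoA synthetases, and 3 regulators.

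Schwann cells (SCs), the glia of peripheral nerves, came from P5 mice (postnatal day 5) and were sorted after dissociation of the sciatic nerve, and their polyadenylated RNA was amplified by Smart-Seq2, which copies full-length transcripts and counts no molecular identifiers. The animals of every gate carried the same alleles, a Cre transgene of the Schwann cell lineage together with the Cre-dependent reporter ReYFP and the ubiquitous reporter βAct-DsRed, on a C57bl/6J background. The study used this transgene to restrict eYFP to that lineage, and the purity of the sorted cells was not tested here. The allSC gate took all eYFP-positive cells, the mSC gate those of high side scatter, and the nmSC gate those of low side scatter. A gate on side scatter enriches a population and does not isolate it, and enzymes were used to dissociate the nerves. There were 4 libraries per gate, each from 1 mouse, which makes 12, and the labels give the libraries of the 3 gates the same subject numbers, 1 to 4. Male and female mice were used for every gate. There were 8180927 to 16918122 counted reads per library. In bulk samples such as these, fewer cells of a type and less RNA per cell cannot be told apart.

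Myelin is a membrane unusually rich in lipid, and a myelinating SC enlarges its plasma membrane many times over. In the cytosol, citrate is split into acetyl-CoA, acetyl-CoA carboxylase turns this into malonyl-CoA, and fatty acid synthase builds palmitate from both with NADPH. At the endoplasmic reticulum the chain is lengthened by a cycle of condensation, reduction, dehydration and reduction, and desaturases insert double bonds. Acyl-CoA synthetases activate free fatty acids for elongation, desaturation and lipid synthesis, and SREBP proteins are the best known activators of the genes.

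The labels of the gates were checked against markers. The markers of the myelinating state reported here (Ncmap, Prx, Mag and Egr2) were each higher in mSC than in nmSC by edgeR's test described below, and all 5 markers of immature, non-myelinating or dividing cells (Ngfr, Ncam1, L1cam, Mki67 and Top2a) were higher in nmSC. Markers of other cell types were low with 1 exception. Adipocytes are rich in the enzymes described here, and their 8 markers summed to 1.79 to 2.65 CPM (counts scaled to a common library total) in mSC libraries, 3.13 to 3.95 CPM in allSC libraries and 2.98 to 4.94 CPM in nmSC libraries. Of these markers 3 passed the filter on low counts, none was called, and Cfd had at most 2 counts in any library. The exception was the list for fibroblast-like and perineurial cells, which summed to 555.5 to 1236 CPM in mSC, 2281 to 2697 CPM in allSC and 3175 to 4420 CPM in nmSC. Most of this sum was Col1a1, while Pdgfra reached at most 3.60 CPM in any library. The 6 endothelial markers summed to 21.3 to 31.9 CPM in mSC and 9.83 to 17.7 CPM in nmSC, and most of this sum was Kdr (20.3 CPM on average in mSC and 5.90 CPM in nmSC). Kdr was called as higher in mSC, while Pecam1 and Tek were called as higher in nmSC. The 6 immune markers summed to 14.7 to 23.6 CPM and 20.1 to 31.9 CPM, and the 5 mural markers to 15.5 to 22.9 CPM and 29.6 to 39.5 CPM. The part of other cells in the differences below was not tested.

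One library stood apart before any comparison was made. In mSC replicate 4, the deviation of a gene from the mean of the other mSC libraries, on the log2(CPM + 1) scale, depended on the length of its exons, with a Spearman correlation of -0.33 across 18597 tested genes, which are not independent replicates and share the depth of 1 library. The coefficient was 0.30 for mSC replicate 1, which is compared with a mean that includes replicate 4. The median deviation of all genes in mSC replicate 4 ran from 0.53 for genes of up to 1000 bp of exon to -0.15 for genes over 8000 bp. Some single fatty acid genes lay outside this range, which is one of medians and not of single genes. Fasn deviated by -1.34, Srebf1 by -1.16, Acly by -1.13, Scd2 by -1.10, Scd1 by -0.88 and Fads1 by -0.68, while Hacd1 deviated by 1.03, Tecr by 0.92 and Slc25a1 by 0.56. Within their length classes, only 0.355% of all genes lay at or below Fasn, 1.57% at or below Srebf1, 1.88% at or below Acly and 2.12% at or below Scd2. These are the lowest shares among the tested members, and the highest were 97.7% for Hacd1 and 95.8% for Tecr. Other members lay between, such as Slc25a1 at 82.7%, Elovl6 at 68.2%, Acsl3 at 53.8% and Fads1 at 12.3%. Where a call on a named member, or the count of a list, changes without this library, the value without it is given too.

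**Figure D1:**
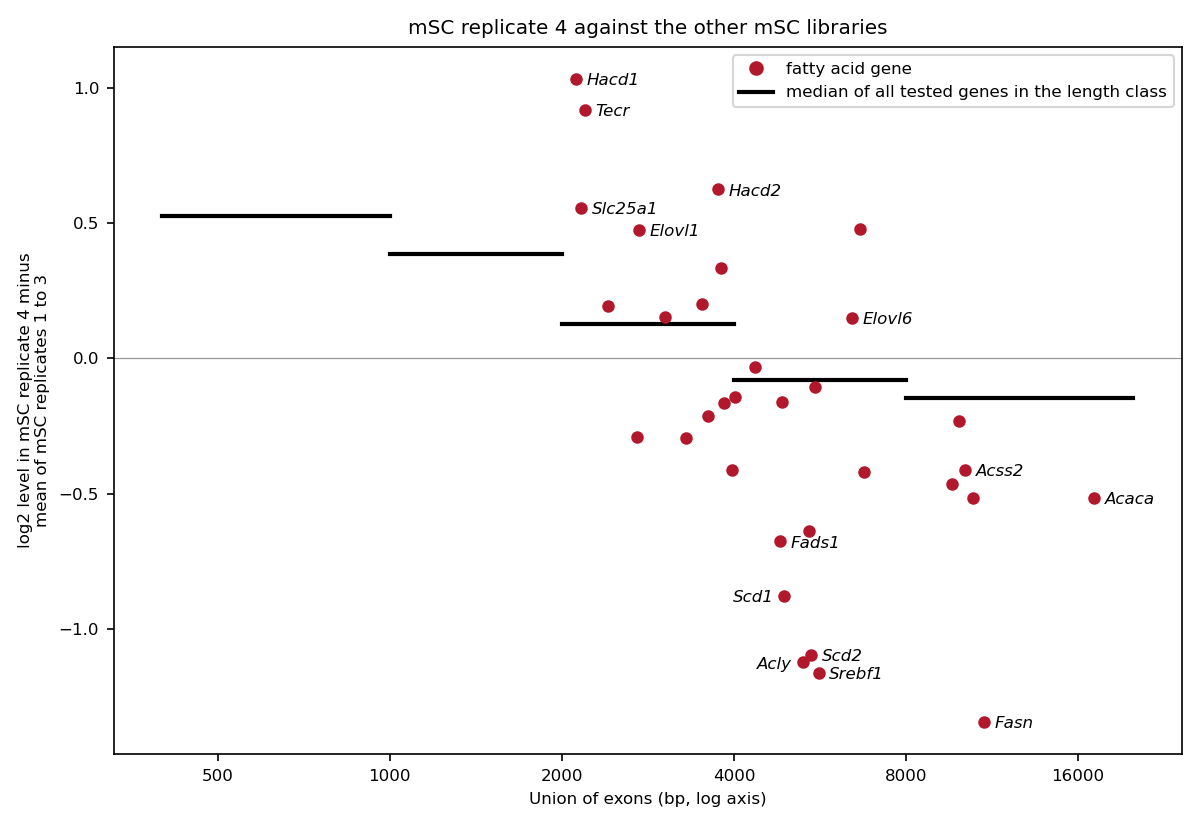
Deviation of each tested fatty acid gene in mSC replicate 4 from the mean of mSC replicates 1 to 3 (vertical axis, log2(CPM + 1) units) against the summed length of its exons (horizontal axis, bp, log scale); black bars are medians of all tested genes in each length class. Fasn, Srebf1, Acly and Scd2 lie more than 1 log2 unit below the other mSC libraries, and Hacd1 lies 1.03 above them.

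Promoter windows are shown here for 6 members, because the genes of this pathway are often described through shared promoter elements and differ between the gates in both directions. RefSeq windows of 300 bases, from 250 before to 50 after the annotated start (GRCm38.p6), matched 31 of the 35 members, and the first listed window was used where a gene has more than 1. Capitals mark matches, on either strand, to the E-box CACGTG, the NF-Y box CCAAT and the sterol element letters TCACNCCAC. The first 3 genes were higher in mSC and the last 3 in nmSC.
Slc25a1 promoter (chr16:17928170-17928469, minus strand): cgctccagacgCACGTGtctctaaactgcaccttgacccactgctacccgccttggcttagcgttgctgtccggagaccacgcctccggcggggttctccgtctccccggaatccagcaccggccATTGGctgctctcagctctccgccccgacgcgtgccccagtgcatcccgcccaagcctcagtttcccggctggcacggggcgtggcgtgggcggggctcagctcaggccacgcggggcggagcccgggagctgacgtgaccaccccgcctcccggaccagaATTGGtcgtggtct
Fasn promoter (chr11:120824498-120824797, minus strand): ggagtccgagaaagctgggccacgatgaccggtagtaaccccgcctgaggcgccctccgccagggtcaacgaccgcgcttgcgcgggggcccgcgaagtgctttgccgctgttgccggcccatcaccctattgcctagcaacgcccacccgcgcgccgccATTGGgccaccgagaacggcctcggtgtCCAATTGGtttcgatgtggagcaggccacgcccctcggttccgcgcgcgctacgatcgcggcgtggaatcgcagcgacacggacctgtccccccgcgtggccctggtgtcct
Tecr promoter (chr8:83594442-83594741, minus strand): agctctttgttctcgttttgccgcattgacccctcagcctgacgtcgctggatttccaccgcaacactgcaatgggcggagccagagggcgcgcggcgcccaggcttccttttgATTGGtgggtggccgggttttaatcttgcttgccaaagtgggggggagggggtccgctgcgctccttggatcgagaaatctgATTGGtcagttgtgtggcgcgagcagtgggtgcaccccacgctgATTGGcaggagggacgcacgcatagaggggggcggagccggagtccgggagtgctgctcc
Elovl5 promoter (chr9:77917115-77917414, plus strand): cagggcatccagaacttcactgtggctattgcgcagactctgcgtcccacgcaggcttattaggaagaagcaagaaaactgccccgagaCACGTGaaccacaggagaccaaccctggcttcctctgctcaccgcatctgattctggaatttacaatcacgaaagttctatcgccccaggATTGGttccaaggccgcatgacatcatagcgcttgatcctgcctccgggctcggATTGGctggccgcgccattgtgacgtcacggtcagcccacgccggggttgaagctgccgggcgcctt
Acsbg1 promoter (chr9:54661836-54662135, minus strand): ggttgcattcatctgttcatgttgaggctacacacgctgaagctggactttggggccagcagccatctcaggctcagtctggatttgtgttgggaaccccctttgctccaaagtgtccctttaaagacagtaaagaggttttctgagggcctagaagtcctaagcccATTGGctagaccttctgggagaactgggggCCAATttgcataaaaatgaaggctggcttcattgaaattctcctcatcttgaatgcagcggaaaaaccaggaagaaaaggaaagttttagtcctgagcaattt
Mlxipl promoter (chr5:135106641-135106940, plus strand): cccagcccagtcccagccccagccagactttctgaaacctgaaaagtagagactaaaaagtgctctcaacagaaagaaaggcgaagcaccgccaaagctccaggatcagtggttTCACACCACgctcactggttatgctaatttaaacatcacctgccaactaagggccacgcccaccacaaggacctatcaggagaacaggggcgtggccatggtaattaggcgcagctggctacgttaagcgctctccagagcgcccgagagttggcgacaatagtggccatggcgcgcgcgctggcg

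The Fasn and Tecr windows hold 3 CCAAT matches each. In Fasn, 2 of these lie on opposite strands and share 2 bases. Among members higher in mSC, 11 of 18 windows (61.1%) held CCAAT, and among members higher in nmSC 5 of 8 (62.5%), against 37.9% of all 27025 promoters and 38.7% of those of tested genes. CACGTG occurred in 3 of the 18 windows (16.7%) and 1 of the 8 (12.5%), against 7.24% of all promoters, 8.84% for tested genes and 11.4% for all genes higher in mSC. The GC box GGGCGG was in 15 of 18 windows (83.3%) and 3 of 8 (37.5%), against 54.7% for tested genes and 69.0% for all genes higher in mSC. TCACNCCAC was found in 1 member only, Mlxipl, and in 1.22% of all promoters. A match is a string of letters and not a site, and the absence of one says only that these letters are not in this window.

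To ask how the pathway differs between the gates, counts were normalised by the TMM method of edgeR, given as CPM, and compared with its quasi-likelihood test. A single model held the libraries of all gates, and p-values were adjusted by the Benjamini-Hochberg method across all tested genes, at a threshold of 0.05. A gene past this threshold is called here. Of the 35 members 33 passed the filter on low counts. In mSC against nmSC, 21 members were higher in mSC and 8 were higher in nmSC, which makes 29 of 33. The 8 include Mlxipl, which passed the filter only through libraries outside mSC. They also include Acsl6, which the mSC libraries alone would not have taken past the filter. Among all 18597 tested genes 40.5% were called, 20.4% as higher in mSC and 20.2% as higher in nmSC. The CPM values of the mSC and nmSC libraries did not overlap for the same number of members, 29, against 34.2% of all tested genes. The median log2 fold change, mSC over nmSC, was 1.22 over the members and -0.16 over all genes. None of the 29 calls was lost with the subject number as a block or when any 1 library was left out. Scaling by library size alone moved the median of all genes to -0.73 and gave 20 members higher in mSC and 10 higher in nmSC.

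**Figure D2:**
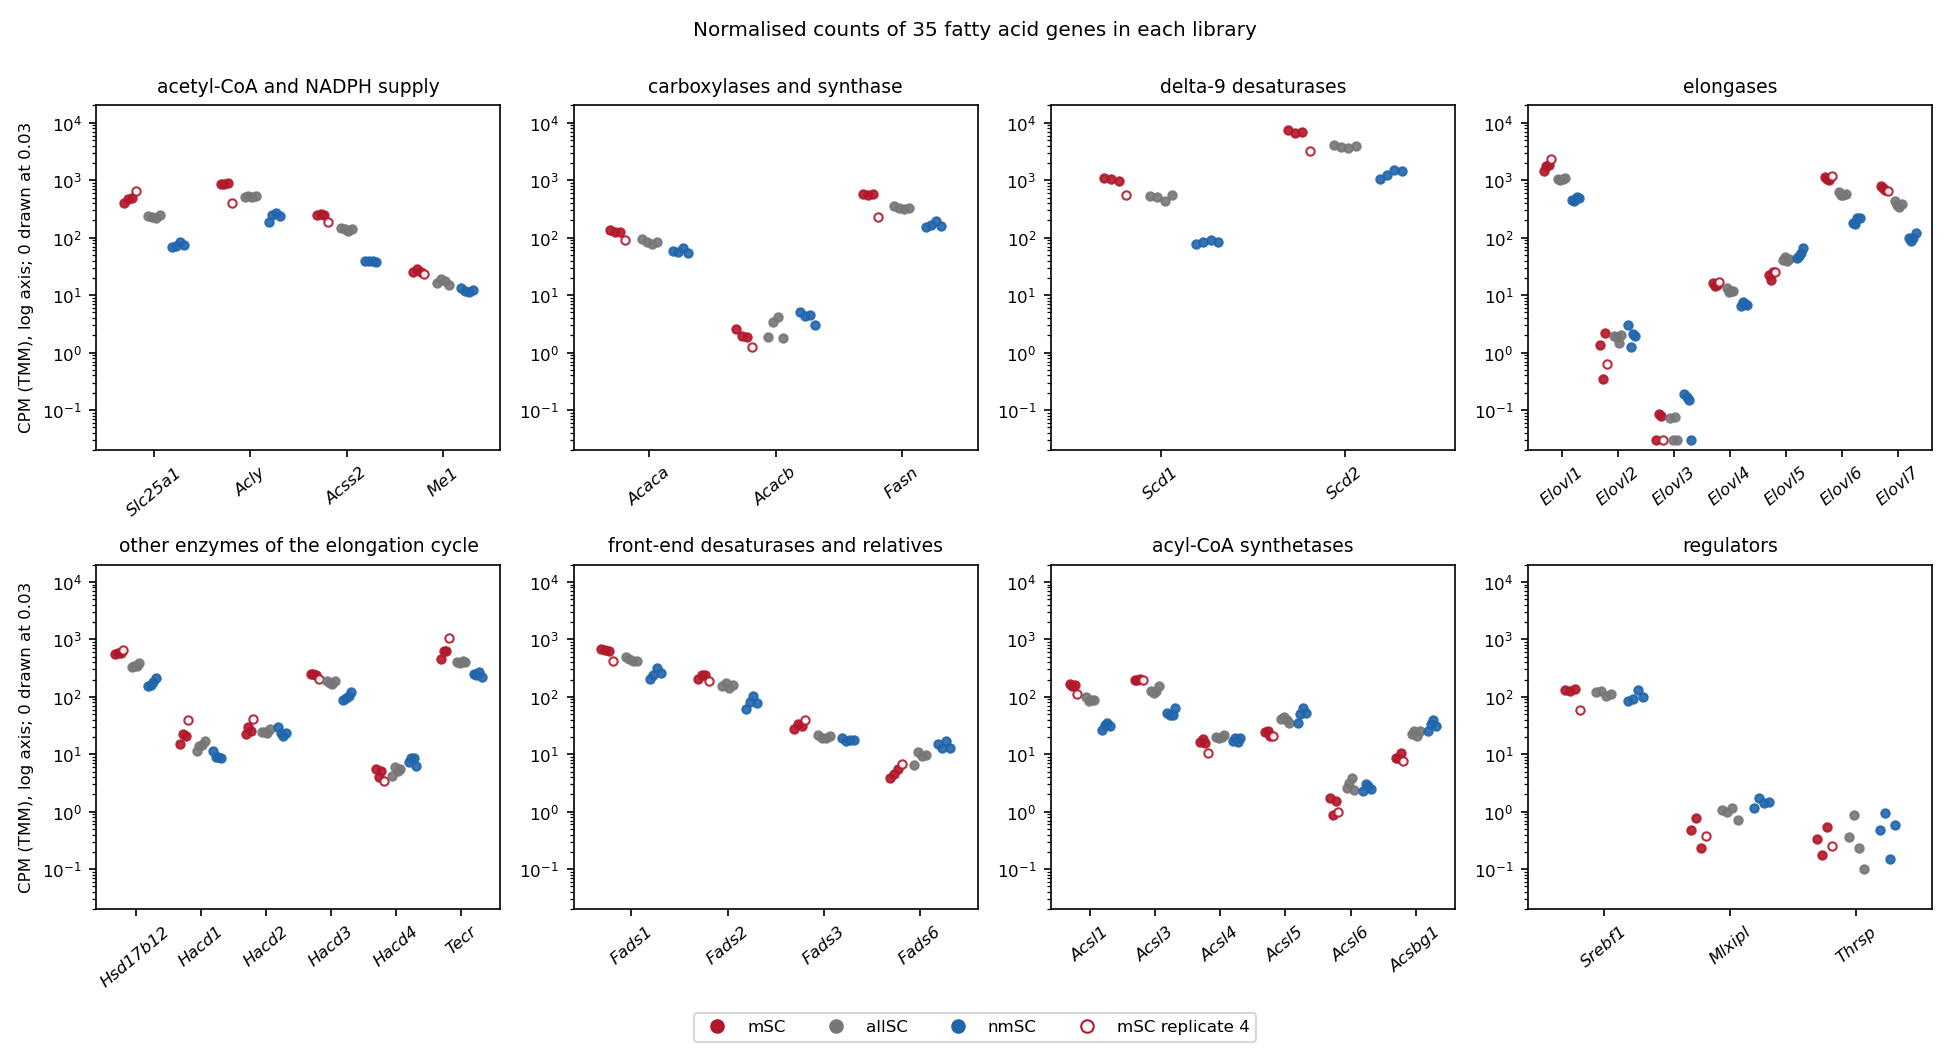
Normalised counts (CPM, log axis) of the 35 genes in all 12 libraries, by step of the pathway; each point is 1 library and open points are mSC replicate 4. The Scd1 values of 564 to 1098 CPM in mSC lie far above those of 77.3 to 91.6 CPM in nmSC, while the Srebf1 values of the 3 gates overlap.

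All 4 genes that supply carbon and reducing power were higher in mSC. Slc25a1, the mitochondrial citrate carrier (chr16:17925223-17928219 of GRCm38), had 395, 471, 484 and 660.0 CPM in mSC replicates 1 to 4, 241, 229, 224 and 253 CPM in allSC and 69.7, 70.7, 85 and 74 CPM in nmSC. The 3 gates did not overlap, and the log2 fold change of mSC over nmSC was 2.75 (SE 0.15, n = 4 per gate, adjusted p = 2.85e-11). Acly, the ATP citrate lyase that makes cytosolic acetyl-CoA, had 859.7, 846, 899 and 397 CPM in mSC and 190.1, 247, 265 and 237 CPM in nmSC. Even the low mSC replicate 4 stood above every nmSC library, and the log2 fold change was 1.68 (SE 0.19, adjusted p = 8.75e-07) with it and 1.89 without it. Acss2, which makes acetyl-CoA from acetate, had 252, 261, 247 and 190.2 CPM in mSC against 38.7, 38.8, 39.5 and 38.2 CPM in nmSC. Its nmSC libraries spanned little more than 1 CPM, and its log2 fold change of 2.62 (SE 0.13) was close to that of Slc25a1. Exons of Acss2 overlap those of Acss2os, Ggt7 and Gss on the other strand. Me1, the cytosolic malic enzyme that yields NADPH, was the least abundant of these genes per length of exon, with 25.5, 28.4, 25.1 and 23.3 CPM in mSC and 13.2, 11.7, 11.1 and 12.5 CPM in nmSC, and differed by a log2 fold change of 1.08 (SE 0.14, adjusted p = 3.98e-06).

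Among the enzymes that build palmitate, the cytosolic carboxylase and the synthase were higher in mSC and the mitochondrial carboxylase was higher in nmSC. Acaca, which makes malonyl-CoA for synthesis, had 138, 127, 124 and 90.4 CPM in mSC, 93.5, 85.8, 77.8 and 82.8 CPM in allSC and 58.8, 56.7, 67.2 and 54.6 CPM in nmSC. The mSC and nmSC values did not overlap, and the log2 fold change was 1.02 (SE 0.14, adjusted p = 7.08e-06). Acacb, the form at the outer mitochondrial membrane whose malonyl-CoA restrains fatty acid import, had 2.58, 1.91, 1.86 and 1.25 CPM in mSC and 5.19, 4.26, 4.56 and 3.03 CPM in nmSC (log2 fold change -1.12, SE 0.32, adjusted p = 0.00901). These levels are those of a gene with 10 to 38 counts per mSC library. Fasn, the synthase (chr11:120805846-120824547), had 579.7, 564, 579.7 and 226 CPM in mSC, 363, 331, 322 and 323 CPM in allSC and 152, 166, 199 and 160.0 CPM in nmSC. Its mSC replicates 1 to 3 agreed closely and replicate 4 fell between the allSC and nmSC libraries. The log2 fold change of Fasn was 1.53 (SE 0.21, adjusted p = 1.00e-05), and 1.77 without mSC replicate 4. Of the read-length stretches in Acaca transcripts, 20.97% also occur in transcripts of other genes, chiefly Gm5182.

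The stearoyl-CoA desaturases, which make monounsaturated fatty acids, included the member with the largest difference, Scd1, and the one with the most reads per length of exon, Scd2. Scd2 (chr19:44293674-44306864) had 7385, 6674, 6889.8 and 3262 CPM in mSC, 4059, 3858, 3618 and 4000.2 CPM in allSC and 1066, 1237, 1523 and 1427 CPM in nmSC. Its mSC replicate 4 lay below all allSC libraries and above all nmSC libraries. The log2 fold change of Scd2 was 2.20 (SE 0.20, adjusted p = 3.12e-08), and 2.42 without that library. Scd1 (chr19:44394455-44407879), its neighbour on the same chromosome, had 1098, 1033, 986 and 564 CPM in mSC, 524, 503, 443 and 546 CPM in allSC and 77.3, 82.7, 91.6 and 84.6 CPM in nmSC. Per kilobase of exon Scd2 was at 1108 ± 345 RPKM (CPM per kilobase of exon, SD, n = 4) in mSC and 240.4 ± 37.2 RPKM in nmSC, although Elovl1 stood above it in both gates when the mean transcript length was used instead. In every mSC library Scd1 was above every allSC library, and the log2 fold change over nmSC was 3.45 (SE 0.18, adjusted p = 1.39e-11). Only 1.72% of the read-length stretches in Scd1 transcripts, and 0.421% of those in Scd2 transcripts, also occur in another gene.

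Elongases carry out the condensation that starts each round of chain lengthening, and they differ in the chains they accept. Of 7 in the list, Elovl1, Elovl4, Elovl6 and Elovl7 were higher in mSC, Elovl5 was higher in nmSC, Elovl2 was not called, and Elovl3 was not tested. Elovl7, which accepts saturated chains, had 781, 729, 667 and 656 CPM in mSC and 98.1, 87.8, 101 and 123 CPM in nmSC, the largest difference of the group (log2 fold change 2.79, SE 0.13). Elovl6, which lengthens palmitate, had 1117, 1044, 1015 and 1175 CPM in mSC and 178, 173, 219.8 and 217 CPM in nmSC, with mSC replicate 4 the highest, and a log2 fold change of 2.46 (SE 0.12, adjusted p = 8.73e-12). These values leave a wide gap between the gates for both genes. Elovl1, which makes the very long saturated and monounsaturated chains of sphingolipids, had 1462, 1799, 1817 and 2344 CPM in mSC, 1058, 1003, 1043 and 1083 CPM in allSC and 451, 436, 519.6 and 491 CPM in nmSC. Its log2 fold change was 1.97 (SE 0.14), and its exons overlap those of Cdc20 on the other strand. In RPKM, Elovl1 was the most abundant elongase in mSC, at 681 ± 134 (SD, n = 4), followed by Elovl7 at 177 ± 14.5 and Elovl6 at 169 ± 11.2, which did not differ beyond their spread on this length and did on the mean transcript length. In nmSC the same scale gave 174 ± 13.9 for Elovl1, 30.6 ± 3.82 for Elovl6 and 25.5 ± 3.7 for Elovl7. Elovl4, known for very long polyunsaturated chains, was much less abundant, with 16.1, 14.6, 14.8 and 17 CPM in mSC and 6.44, 7.66, 6.88 and 6.66 CPM in nmSC (log2 fold change 1.18).

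Elovl5, an elongase of polyunsaturated fatty acids, went the other way. It had 22.2, 18.7, 25.5 and 25.3 CPM in mSC, 41.7, 45.5, 39.8 and 43.3 CPM in allSC and 44.8, 47.1, 54.4 and 65.2 CPM in nmSC. Every mSC library was below every allSC and nmSC library, and the log2 fold change over nmSC was -1.21 (SE 0.15, adjusted p = 1.85e-06). Elovl2, which acts on still longer polyunsaturated chains, had 1.36, 0.348, 2.18 and 0.624 CPM in mSC and 2.98, 1.28, 2.09 and 1.91 CPM in nmSC, and these overlapped. Its log2 fold change of -0.82 (95% interval -1.74 to 0.09, adjusted p = 0.138) did not pass the threshold, but it did when mSC replicate 3 was left out, at -1.32 (adjusted p = 0.0309). Elovl3 had 0 to 2 counts in nmSC libraries and at most 1 count in mSC libraries, under the 3 counts taken as the limit of what this depth can show.

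The other enzymes of the cycle are shared by all elongases. Hsd17b12, the ketoacyl-CoA reductase, had 564, 570.0, 570.3 and 651 CPM in mSC and 155, 163, 178 and 209.5 CPM in nmSC (log2 fold change 1.74, SE 0.12, adjusted p = 9.01e-10). Tecr, the enoyl-CoA reductase that closes the cycle, had 457, 617, 629.8 and 1064 CPM in mSC and 245, 237, 265 and 225 CPM in nmSC. The mSC libraries of Tecr ranged more than 2-fold, and the log2 fold change was 1.51 (SE 0.18) with replicate 4 and 1.23 without it. The 4 hydroxyacyl-CoA dehydratases did not move alike. Hacd3 had 254, 248, 242 and 202 CPM in mSC and 87.4, 96.5, 104 and 119.5 CPM in nmSC (log2 fold change 1.22, SE 0.12), and was the most abundant of them per length of exon. Hacd1 had 14.8, 22.5, 20.7 and 40.1 CPM in mSC and 11.3, 9.11, 8.82 and 8.77 CPM in nmSC, and its log2 fold change went from 1.36 to 1.03 when mSC replicate 4 was left out. Hacd4 was low and higher in nmSC, at 5.5, 4.09, 5.05 and 3.37 CPM in mSC and 7.21, 8.6, 8.67 and 6.33 CPM in nmSC (log2 fold change -0.76, SE 0.21), and its exons overlap those of Focad. Hacd2 had 22.3, 29.7, 25.9 and 40.3 CPM in mSC and 30.3, 23.3, 20.4 and 23.5 CPM in nmSC, which overlapped. It was not called, with a log2 fold change of 0.27 (95% interval -0.09 to 0.63), and scaling by library size turned this value to -0.31.

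Fads1, Fads2 and Fads3 are neighbours on chromosome 19, from 10041569 for the first base of Fads3 to 10196877 for the last base of Fads1, and all were higher in mSC. Fads1, which with Fads2 makes long polyunsaturated fatty acids from dietary precursors, had 686, 663, 628 and 412 CPM in mSC and 202, 239, 315 and 263 CPM in nmSC. Its log2 fold change was 1.23 (SE 0.16, adjusted p = 4.32e-06). Fads2 had 206, 244, 243 and 188 CPM in mSC and 61.5, 82.6, 103 and 79.4 CPM in nmSC (log2 fold change 1.43, SE 0.15). The gates did not overlap for either gene, although both were more variable between nmSC libraries than Acss2 or Scd1. Fads3, which acts on sphingoid bases, had 27.3, 33, 31.5 and 38.7 CPM in mSC and 19.5, 16.8, 17.9 and 17.7 CPM in nmSC (log2 fold change 0.86, SE 0.14). This call, alone among the 29, was lost when libraries were scaled by their size alone, where the value was 0.28. Fads6, a relative on another chromosome, was higher in nmSC, with 3.87, 4.61, 5.59 and 6.87 CPM in mSC, 6.63, 10.9, 9.33 and 9.77 CPM in allSC and 15.1, 12.8, 17.1 and 12.9 CPM in nmSC (log2 fold change -1.48, SE 0.21, adjusted p = 1.04e-05).

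The acyl-CoA synthetases divided between the gates. Acsl1 had 167, 153, 161 and 112 CPM in mSC and 26.9, 32.2, 34.5 and 30.7 CPM in nmSC (log2 fold change 2.25, SE 0.14). Acsl3, which serves lipid droplet and phospholipid synthesis, had 196, 194, 207 and 194 CPM in mSC and 51.7, 48.8, 48.9 and 62.9 CPM in nmSC (log2 fold change 1.90, SE 0.13). Both were higher in mSC in every library, and exons of each overlap another gene (Gm45244 and Utp14b). Acsbg1, a synthetase of the bubblegum family, had 8.63, 8.52, 10.3 and 7.74 CPM in mSC, 22.2, 25.7, 21 and 25.4 CPM in allSC and 25.5, 33.2, 38.7 and 31.3 CPM in nmSC. It was the member with the largest difference towards nmSC, at a log2 fold change of -1.86 (SE 0.16, adjusted p = 1.46e-08). Acsl5 had 24, 25.3, 20.8 and 20.7 CPM in mSC and 35.7, 50.3, 64.7 and 51.7 CPM in nmSC (log2 fold change -1.16), and its exons overlap those of Zdhhc6. Acsl6, at 1.7, 0.87, 1.55 and 0.999 CPM in mSC and 2.31, 3.07, 2.77 and 2.44 CPM in nmSC, was also higher in nmSC (log2 fold change -1.01, adjusted p = 0.0129). This call rests on 8 to 25 counts per mSC library, and mSC libraries alone would not have taken Acsl6 past the filter on low counts. Acsl4, which prefers arachidonate, had 16.5, 18.3, 15.5 and 10.4 CPM in mSC and 17.2, 19, 16.5 and 18.9 CPM in nmSC and was not called, at a log2 fold change of -0.23 (95% interval -0.57 to 0.10). Scaling by library size brought it past the threshold at -0.79.

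No regulator was called as higher in mSC with all libraries. Srebf1 encodes SREBP-1, whose precursor is held in the endoplasmic reticulum and released by proteolysis, so that the level of its RNA is not its activity. It had 129, 128, 136 and 57.8 CPM in mSC, 120.3, 128, 104 and 112 CPM in allSC and 83.1, 91, 133 and 98.4 CPM in nmSC. Its mSC replicate 4 was the lowest of the 12 libraries and its nmSC replicate 3 was within the range of the other mSC libraries. The log2 fold change was 0.15 (95% interval -0.28 to 0.59, adjusted p = 0.561) with all libraries and 0.37 (adjusted p = 0.0314) without mSC replicate 4, while library size scaling gave -0.38. Mlxipl encodes the glucose-responsive factor ChREBP and was near the limit of detection, at 0.476, 0.783, 0.233 and 0.375 CPM in mSC and 1.15, 1.7, 1.42 and 1.45 CPM in nmSC. It was higher in nmSC, and its log2 fold change was -1.60 (SE 0.44, adjusted p = 0.00632) on 3 to 9 counts per mSC library and 12 to 22 per nmSC library. Mlxipl passed the filter on low counts only through libraries outside mSC, so its call carries less weight than the others. Thrsp, whose product Spot 14 modulates lipogenesis in liver and fat, had at most 13 counts in any library and was not tested.

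**Figure D3:**
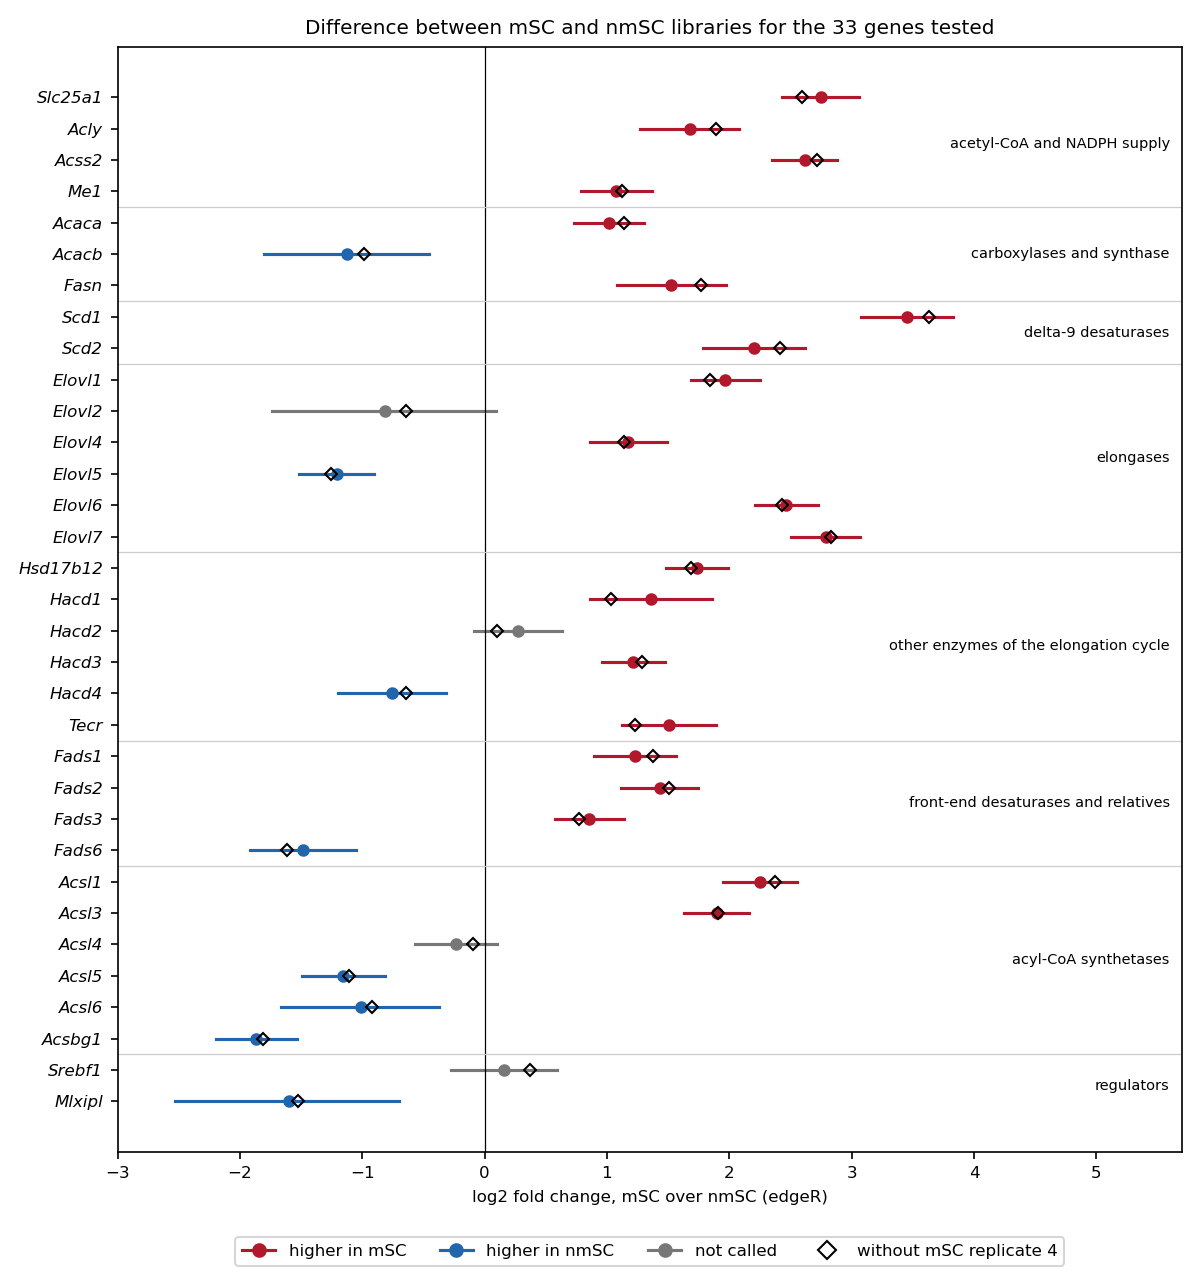
Log2 fold change, mSC over nmSC, of the 33 tested genes by step (points, with 95% intervals as lines; red, higher in mSC; blue, higher in nmSC; grey, not called), with the value without mSC replicate 4 as open diamonds. Scd1 lies farthest to the right at 3.45 and Acsbg1 farthest to the left at -1.86, and no diamond changes sides.

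Ratios of related enzymes within a library do not depend on how libraries are scaled, so 8 ratios were compared between mSC and nmSC by a two-sided exact permutation test. The smallest p this test can reach with 4 libraries per gate is 0.0286. For 6 of the 8 the gates did not overlap (p = 0.0286, adjusted p = 0.0381 over the 8 exact permutation tests). The ratios were chosen with earlier results of these data known. For Acaca to Acacb, Elovl5 to Elovl1, Acsl3 to Acsl4 and Acly to Acss2 the outcome was fixed in advance. In Acaca to Acacb and Elovl5 to Elovl1, both genes already differed without overlap and in opposite directions. For Acsl3 to Acsl4 and for Acly to Acss2, the ranges of the single genes in mSC and nmSC already kept the ratios apart. The p-values of these ratios therefore add nothing to the tests of the genes. The ratio of Scd1 to Scd2, both on the RPKM scale, was 0.173 ± 0.0144 (SD, n = 4) in mSC, 0.145 ± 0.00643 in allSC and 0.0723 ± 0.00692 in nmSC, so Scd1 differed more between the gates than Scd2. Acaca was 36.5 ± 4.51 times Acacb in mSC and 8.09 ± 1.59 times in nmSC. Acly was 5.96 ± 1.33 times Acss2 in mSC and 11.7 ± 1.51 times in nmSC, the acetate enzyme being relatively higher in mSC. Acsl3 was 16.9 ± 4.45 times Acsl4 in mSC and 3.68 ± 0.389 times in nmSC.

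The elongase ratios moved in opposite directions. Elovl6 relative to Elovl1 was 0.255 ± 0.0482 in mSC and 0.176 ± 0.00925 in nmSC on the RPKM scale. Elovl5 relative to Elovl1 was 0.00975 ± 0.00182 in mSC, 0.0315 ± 0.00246 in allSC and 0.0861 ± 0.0115 in nmSC, the largest shift of the 8, with a difference in log2 ratio of -3.15. For the other 2 ratios the gates overlapped. The log2 ratio of Fads1 to Fads2 differed by -0.23 (exact permutation p = 0.171, adjusted p = 0.171) and that of Hacd2 to Hacd3 by -0.96 (exact permutation p = 0.0857, adjusted p = 0.0980). Comparisons of RPKM between genes rest on the length chosen, whereas the differences between gates do not.

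**Figure D4:**
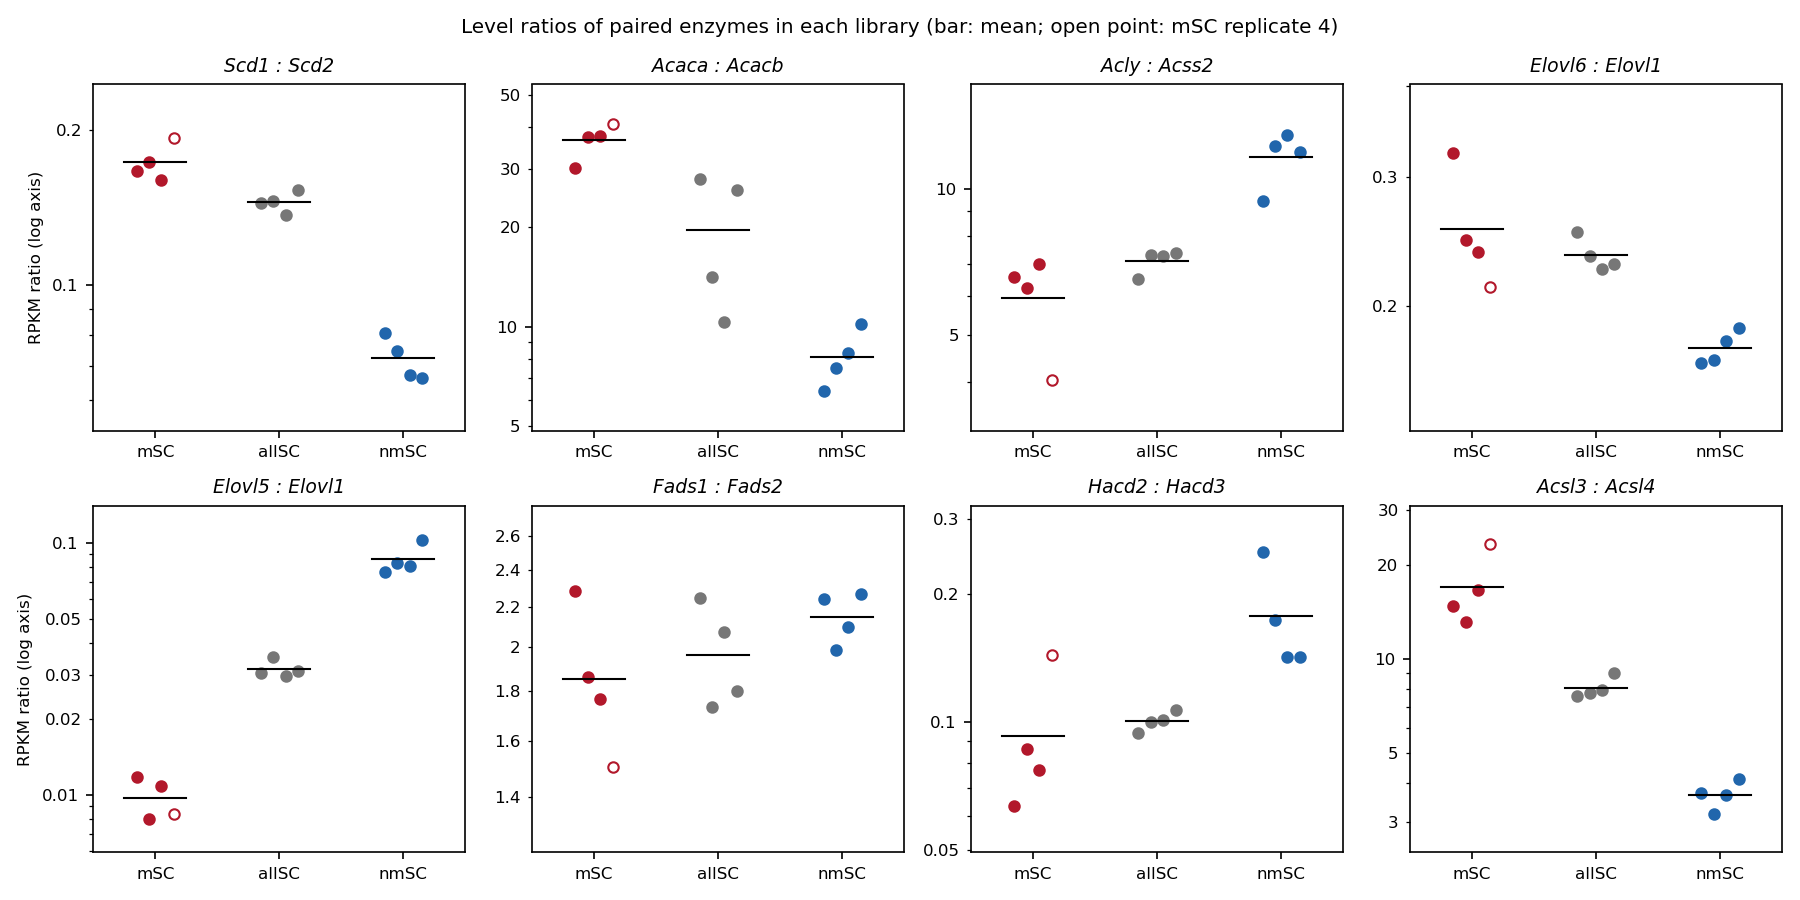
RPKM ratios (log axis) of 8 pairs of related enzymes in each library of the mSC, allSC and nmSC gates; bars are means and open points mark mSC replicate 4. Elovl5 relative to Elovl1 goes from 0.00975 in mSC to 0.0861 in nmSC, with the allSC libraries between, while the Fads1 to Fads2 ratios overlap.

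The allSC gate holds all labelled cells, and both other gates share it as a comparator. In allSC against mSC, 17 members were higher in mSC, 5 were higher in allSC (Elovl5, Fads6, Acsl5, Acsl6 and Acsbg1) and 11 were not called. Of all tested genes 17.6% were called, 8.76% as higher in mSC and 8.8% as higher in allSC. Scd1 differed by a log2 fold change, allSC over mSC, of -0.87 (SE 0.16) and Slc25a1 by -1.09 (SE 0.14). Acly (-0.54, adjusted p = 0.0559), Fasn (-0.54, adjusted p = 0.0801) and Fads1 (-0.41, adjusted p = 0.0812) were not called, but were called without mSC replicate 4, at -0.77, -0.81 and -0.58. Hacd1 (-0.79, adjusted p = 0.0243) was lost without that library (adjusted p = 0.0585). With the subject number as a block, Scd2 (-0.61, adjusted p = 0.0507) and Hacd3 (-0.41, adjusted p = 0.0515) were no longer called. Scd2, Hacd1, Hacd3, Fads2 and Acaca each lost their call when at least 1 of mSC replicates 2 and 3 and allSC replicates 1 to 3 was left out. Scaling by library size gave 7 members higher in allSC and 10 higher in mSC.

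In allSC against nmSC, 19 members were higher in allSC, 1 was higher in nmSC and 13 were not called. Of all tested genes 10.4% were called, 7.54% as higher in allSC and 2.83% as higher in nmSC. Fads6 was the member higher in nmSC, with a log2 fold change, allSC over nmSC, of -0.66 (adjusted p = 0.0371). This call was lost when allSC replicate 1, 3 or 4 or nmSC replicate 1, 2 or 3 was left out (adjusted p up to 0.148), and the log2 fold change ran from -0.75 to -0.53 over all libraries left out in turn. Scd1 (2.58, SE 0.17), Elovl7 (1.91, SE 0.13) and Acss2 (1.85, SE 0.12) had the largest differences towards allSC. Me1 (0.49, adjusted p = 0.0279) was not called with the subject number as a block (0.48, adjusted p = 0.0524). Me1 and Acaca also lost their calls when certain single libraries were left out. Without mSC replicate 4, which is in neither gate compared but enters the filter, the scaling, the shared estimate of the spread and the adjustment, Hacd1, Hacd4 and Acsbg1 were gained. Scaling by library size gave 16 members higher in allSC and 5 higher in nmSC.

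Where the allSC mean lies between the means of the other gates differed from gene to gene. With 0% for the nmSC mean and 100% for the mSC mean of CPM, the 21 members higher in mSC had a median place of 50.2%, from 14.0% for Fads3 to 59.7% for Elovl4, against a median of 42.3% over all genes higher in mSC. Without mSC replicate 4 the members had a median of 45.5% and all genes higher in mSC one of 45.3%. The order of the members also depended on this library. With it, Acly (54.8%), Scd2 (54.2%), Fasn (52.1%) and Scd1 (50.3%) lay above Slc25a1 (37.8%), Tecr (35.1%) and Hacd1 (30.7%). Without it, Tecr lay at 48.5% and Hacd1 at 46.8%, above Scd2 at 45.3%, Acly at 44.7%, Scd1 at 44.0%, Slc25a1 at 43.1% and Fasn at 40.9%. Fads3 (16.2%) and Elovl4 (63.0%) remained the lowest and the highest. For the 8 members higher in nmSC the median was 41.6%, from -26.6% for Acsl6, whose allSC mean was above both other gates, to 78.9% for Hacd4. These are places of means and carry no test.

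**Figure D5:**
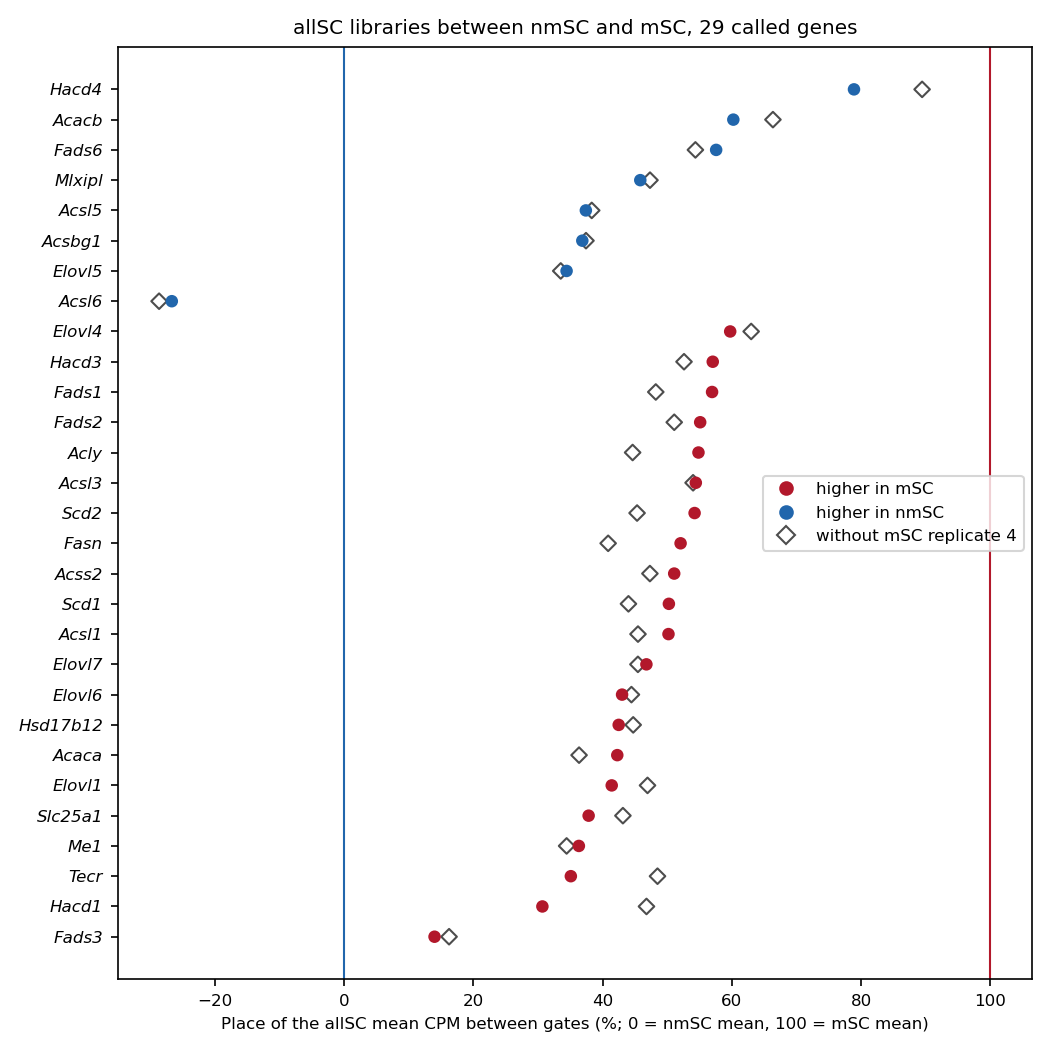
Place of the allSC mean CPM on a scale from the nmSC mean (0%) to the mSC mean (100%) for the 29 members called between mSC and nmSC; each filled point is 1 gene and each open diamond the same gene without mSC replicate 4. The members higher in mSC run from 14.0% for Fads3 to 59.7% for Elovl4, Acsl6 alone lies outside the scale, at -26.6%, and the diamonds of Tecr and Hacd1 lie to the right of those of Scd2, Acly, Scd1 and Fasn.

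Further genes of the pathway were taken as lists, whose counts in mSC against nmSC stand beside the 20.4% of all tested genes called as higher in mSC and the 20.2% called as higher in nmSC. Of 15 genes for SREBP processing and related regulators, 7 were higher in mSC and none was higher in nmSC, with a median log2 fold change, mSC over nmSC, of 0.48 against -0.16 for all genes. Insig1, which retains SREBP precursors in the endoplasmic reticulum and is itself a target of SREBP, had 533.9 ± 20.9 CPM (SD, n = 4) in mSC and 86.9 ± 13.8 CPM in nmSC (log2 fold change 2.62, SE 0.13). Without mSC replicate 4, 8 of the 15 were higher in mSC, Mbtps2 being gained. Mbtps1, a protease that cleaves these precursors, had 244.0 ± 86.5 CPM in mSC and 236.3 ± 47.4 CPM in nmSC and was not called. Of 11 other genes of NADPH supply, acetyl-CoA supply or the pentose phosphate pathway, 6 were higher in mSC (7 without mSC replicate 4, with Acss1) and 1 was higher in nmSC. Among them Idh1, the cytosolic isocitrate dehydrogenase, had 471.1 ± 50.7 CPM in mSC and 200.1 ± 33.01 CPM in nmSC (log2 fold change 1.24, SE 0.13). Tkt, the transketolase of the pentose phosphate pathway, had 801.8 ± 14.9 CPM and 365.6 ± 68.8 CPM (log2 fold change 1.13, SE 0.13). Taldo1, the transaldolase of the same pathway, had 602.2 ± 201.6 CPM and 319.2 ± 40.3 CPM, and its log2 fold change of 0.92 (SE 0.17) was 0.67 without mSC replicate 4. The mitochondrial malic enzyme Me3 went the other way, with 6.89 ± 1.87 CPM in mSC and 12.8 ± 2.19 CPM in nmSC (log2 fold change -0.90). Mitochondrial fatty acid synthesis, a separate pathway that provides lipoate, had 8 tested genes, of which 2 (Oxsm and Lipt2) were higher in mSC and none in nmSC (median 0.36), a share close to that of all genes. Lipt2 was lost without mSC replicate 4 (adjusted p = 0.160). Ndufab1, its acyl carrier protein, and Lias, the lipoate synthase, were not called. Its condensing enzyme Oxsm had 7.71 ± 0.342 CPM in mSC and 4.99 ± 0.406 CPM in nmSC (log2 fold change 0.63, adjusted p = 0.0228).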

How the data were processed

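RNA of 12 libraries was analysed from the table of gene counts deposited by the authors, who aligned single-end Smart-Seq2 reads, counted them per gene and deposited the raw counts without normalization. The submitters' processing notes name bcl2fastq, STAR 2.6.1c, featureCounts and GRCm38.p5, while the study's methods name a human build for this step. The identifiers are of mouse. Strand, multi-mapping and overlap options are not given in the sources used here. For the 14 of the 35 members that share exon bases with another gene, reads in those bases cannot be assigned with certainty. Of the read-length stretches in Elovl1 and Srebf1 transcripts, 0% also occur in transcripts of another gene. For Me1 the share was 10.9% and for Hacd1 9.69%. Of 25700 identifiers 25664 matched GENCODE M21, which gave symbols and positions.

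Counts were filtered by edgeR's expression filter by gate (18597 genes kept), normalised by TMM and fitted by edgeR 4.0.16 in R 4.3.3 with its quasi-likelihood test, Benjamini-Hochberg adjustment and a threshold of 0.05. RPKM is the TMM-normalised CPM per kilobase of the union of exons. Ratios were tested on log2 ratios of counts with 0.5 added, by the two-sided exact permutation test of scipy 1.17.1. The steps were tested on simulated mSC and nmSC counts, with 200 genes changed in each of 5 draws. On average edgeR recovered 61.3% of these with 4.66% false calls, and DESeq2 64.6% with 12.1%. At a 2-fold change edgeR recovered 54.8% and at a 1.5-fold change 13.2%, so a gene not called may still differ. The draws changed only 200 genes and drew each gene independently, whereas 40.5% of tested genes were called between mSC and nmSC. These rates therefore check the steps and do not give the power of the real comparison. DESeq2 1.42.0 was an alternative.

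The labels give libraries of different gates the same subject numbers, and the methods state that a sample came from 1 animal but not that 1 animal gave all gates. The main tests used the gate alone and no pairing. Only the alternative with the subject number as a block treated same-numbered libraries as pairs, on the subject label alone. Their deviations from gate means correlated by -0.10, 0.03, 0.11 and -0.04 between mSC and nmSC. The study used mice of both sexes for every gate and reports that the libraries of a gate grouped by sex. The labels do not assign sex, so it could not be used and is part of the spread within gates. No libraries of a gate were duplicates (chi-square per degree of freedom 4.03 to 95.7, over genes with at least 20 counts). Depth was 8180927 to 16918122 counts, at which 3 counts equal 0.177 to 0.367 CPM before TMM. Such limits cover counting error only, since PCR copies are not independent molecules.

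The members, lists and ratios were chosen with earlier results of these data known. All 35 members are named. One marker of the myelinating state is not reported here. From each further list at most 4 genes are described, namely the called genes with the largest rise and the largest fall and the 2 with the highest mean CPM. Genes of these lists whose call changed with the block or without mSC replicate 4 are named too, as chosen after their values were seen, and those alternatives for the lists and for the place of allSC were added then. Slc27a2 and Slc27a3 are named for their low level in mSC, also after their values were seen. Corrections for exon length were added after the data were seen.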

Additional observations from a re-analysis of the deposited data

Results flagged for a closer look

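Within the 4 libraries of each gate, 105 groups of member CPM values and 24 groups of ratios were searched for a library far from the rest by Dixon's test, which chance flags in about 1 group in 20. It found 6 member groups and 1 ratio group, and 4 of the 7 were in mSC replicate 4. The total of 7 is near what chance would flag, and the groups share libraries and are not independent. Acly had 397.4 CPM there, while mSC replicates 1 to 3 had 846.4 to 898.5 CPM. Fasn had 225.5 CPM, below their 563.7 to 579.7 CPM. Srebf1 had 57.8 CPM, below their 127.8 to 135.8 CPM. Hsd17b12 was high in that library, at 650.7 CPM, above their 563.9 to 570.3 CPM. On the log2(CPM + 1) scale Fasn deviated by -1.345 from the other mSC libraries, beside a median of -0.145 for all genes of its exon length class. Acly deviated by -1.125 and Srebf1 by -1.164, beside a median of -0.0803. Hsd17b12 deviated by 0.196, beside a median of 0.128. The part of exon length in these 4 deviations was not tested.

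In mSC replicate 3, Acsl3 had 207.1 CPM, and the rest of the gate 193.6 to 195.8 CPM. Hacd1 had 11.3 CPM in nmSC replicate 1 and 8.77 to 9.11 CPM in the rest of that gate. The ratio of Acly to Acss2 on the RPKM scale was 6.51 in allSC replicate 1, against 7.27 to 7.38 in the other allSC libraries.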

How the results depend on the processing

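The number of members called between mSC and nmSC (29) was between 29 and 31 under every alternative, with 29 for DESeq2's size factors and its Wald test, with the subject number as a replicate block, with a correction for exon length (chosen after seeing the data) and with both. Leaving out 1 library gave 29 to 30. In allSC against mSC (22) the number was 17 under library size alone, 20 under the replicate block and 26 with DESeq2's Wald test or the length correction, and 17 to 24 when 1 library was left out. In allSC against nmSC (20) it was 19 under the block and 17 to 23 when 1 library was left out. The block changed no call on a member between mSC and nmSC, and in the further lists it lost Etfb, Slc27a5 and Acsbg2. With it, the 4 pairs of a ratio allow no p under 0.125, and leaving out 1 library allows none under 0.0571, so these say nothing about the ratios' calls.

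No called difference reversed. Scaling by library size alone turned log2 fold changes that were not called. These were Hacd2 (-0.31) and Srebf1 (-0.38) in mSC over nmSC, Hacd2 (0.0794) in allSC over mSC, and Hacd2 (-0.24), Fads3 (-0.10), Acsl4 (-0.0882), Acsl6 (-0.0643) and Srebf1 (-0.0530) in allSC over nmSC. Library size without the 50 genes with the most counts did so for Hacd2 (-0.11) and Srebf1 (-0.19) in mSC over nmSC, and for Hacd2 (-0.13) and Fads3 (-0.00156) in allSC over nmSC. Srebf1 in allSC over mSC turned to -0.0171 with DESeq2's size factors, -0.0290 with its Wald test, -0.0883 with the length correction, -0.0440 with this and the block, and ran from -0.20 to 0.11 when 1 library was left out. In allSC over nmSC, leaving out 1 library gave -0.34 to 0.0481 for Elovl2 and -0.0417 to 0.15 for Hacd2, which was -0.000661 with only these gates in the fit. The cause was not tested. RPKM on the mean transcript length in place of the union of exons moved 95 of 105 levels by more than 1 SD, and put Elovl1 above Scd2 and Elovl6 above Elovl7 in mSC. Members under 3 counts could not be compared at this depth.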

Other observations

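Of 19 genes of beta-oxidation, all of which were tested, 15 were higher in mSC and none was higher in nmSC, with a median log2 fold change of 0.56 against -0.16 for all genes. Among all tested genes 20.4% were called as higher in mSC and 20.2% as higher in nmSC. With the subject number as a block 14 of the 19 were higher in mSC (Etfb was lost), and without mSC replicate 4 there were 13 (Etfb and Eci2 were lost). Echs1, the short-chain enoyl-CoA hydratase, had 191.0 ± 42.7 CPM (SD, n = 4) in mSC and 93.2 ± 15.6 CPM in nmSC (log2 fold change 1.03, SE 0.15). Hadha and Hadhb, the subunits of the mitochondrial trifunctional protein, had log2 fold changes of 0.66 (SE 0.11) and 0.85 (SE 0.14).

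Of 15 genes of uptake, storage and lipolysis, 6 were higher in mSC and 3 were higher in nmSC, the second a share near that of all tested genes. Over all tested genes these shares were 20.4% for mSC and 20.2% for nmSC. Mgll, the monoacylglycerol lipase, had 538.6 ± 118.7 CPM in mSC and 109.6 ± 11.5 CPM in nmSC (log2 fold change 2.30, SE 0.15). Slc27a1, a fatty acid transport protein, had 236.4 ± 36.5 CPM and 158.9 ± 46.0 CPM (log2 fold change 0.57, SE 0.17). Slc27a5, another member of that family, had the largest difference towards nmSC, at 0.353 ± 0.141 CPM in mSC and 1.06 ± 0.579 CPM in nmSC (log2 fold change -1.54, edgeR adjusted p = 0.0309). It passed the filter on low counts only through libraries outside mSC. It was not called with the block (adjusted p = 0.0556) or without mSC replicate 4 (adjusted p = 0.0505), while Gpam and Slc27a6 (higher in mSC) and Lpl (higher in nmSC) were gained without that library. Slc27a2 and Slc27a3, the others of the 3 genes higher in nmSC, had means of 0.326 and 0.80 CPM in mSC. At these levels the mSC libraries alone would not have taken them past the filter either. Of 11 other acyl-CoA synthetases and thioesterases, 3 were higher in each gate, shares near those of all tested genes (20.4% and 20.2%). With the block 2 were higher in nmSC. The call lost was Acsbg2, a synthetase of the bubblegum family, which had 0.369 ± 0.227 CPM in mSC and 0.976 ± 0.433 CPM in nmSC (log2 fold change -1.45, edgeR adjusted p = 0.0384, and 0.0510 with the block). Acsbg2 too passed the filter only through libraries outside mSC. Them4, a thioesterase, had 61.6 ± 6.97 CPM in mSC and 21.5 ± 4.24 CPM in nmSC (log2 fold change 1.52, SE 0.15), while Acot1, a cytosolic thioesterase, had 78.7 ± 12.6 CPM and 82.5 ± 6.02 CPM and was not called. Acot9, also a thioesterase, had 70.4 ± 10.2 CPM and 59.8 ± 6.51 CPM and was not called.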
